A study of Mus musculus with 12 samples.

Results

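Expression of the genes that make fatty acids and insert double bonds into them was examined in RAW 264.7 cells, a mouse macrophage-like tumour line transformed by Abelson murine leukaemia virus. The 10 genes listed were Srebf1, Acly, Acaca, Fasn, Elovl5, Elovl6, Scd1, Scd2, Fads1 and Fads2, and a gene was taken from the deposited table where a row carried its symbol alone. Of the 10, 9 had such a row, each exactly 1, among 22180 genes with a row of their own. The row annotated to Scd2 also carried Mir5114, so it was not used and nothing is reported for Scd2. All 9 genes passed the filter on low values and were among the 14611 genes tested.

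Transfection lasted 48 h, and the cells received pre-miR-223, a reagent that supplies the microRNA miR-223, anti-miR-223, a reagent that inhibits it, or a scramble oligonucleotide of no relevant target. Each group had 4 arrays titled as biological replicates, 12 in all. All groups shared the line, the culture conditions and the transfection itself, and untransfected cells were not analysed here. The line is a single tumour-derived line, so the replicates are cultures and not animals. Nothing in the labels says how separate the cultures were. The p-values therefore set group differences only against the spread of these 12 samples within their groups. The series title sets the measurements within a study of regulatory changes produced by miR-223 in this line. Values are log2 array signals, in which a difference of 1 is 2-fold, and they were normalised between arrays by the authors. In bulk RNA of this kind, fewer cells expressing a gene and less of its RNA per cell cannot be told apart.

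Fatty acid synthesis turns citrate-derived acetyl-CoA into palmitate and then lengthens and desaturates it. The transcription factor SREBP1, encoded by Srebf1, is known to switch on most of the genes of the pathway, and in macrophages the nuclear receptor LXR is known to raise Srebf1 in turn. ACLY, encoded by Acly, makes cytosolic acetyl-CoA. The carboxylase encoded by Acaca converts it to malonyl-CoA, and the synthase encoded by Fasn builds palmitate from both. The elongases encoded by Elovl5 and Elovl6 add carbons to polyunsaturated and to saturated or monounsaturated chains, in that order. Scd1 makes oleate from stearate, and Fads1 and Fads2 desaturate the precursors of arachidonate, from which macrophages make prostaglandins and leukotrienes.

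The reagents are defined by the microRNA, whose mature strands are shown because a microRNA chooses its targets mainly through its seed, bases 2 to 8, in capitals here. The sequences are those of RefSeq (GRCm38.p6), at chrX:96242884-96242905 for the 3p strand and chrX:96242842-96242864 for the 5p strand, both on the plus strand; the exact sequences of the transfected reagents are not given in the sources used here.
mmu-miR-223-3p: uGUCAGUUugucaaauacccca
mmu-miR-223-5p: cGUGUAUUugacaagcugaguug
The seeds of the strands differ, GUCAGUU for 3p and GUGUAUU for 5p. Sites for either seed in the messages of the 9 genes were not searched.

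RefSeq promoter windows, from 250 bases before to 50 bases after the start, were given for 7 of the 10 listed genes, in 9 windows. The 250 bases before the start are printed 5′ to 3′ on the gene's strand for Fasn, Elovl5 and Elovl6. Fasn and Elovl5 were chosen because their correlations with Fads2 across the 12 arrays passed the test described further on (r = 0.789 and 0.776). Neither passed after each array was centred on its median (r = 0.459 and 0.302). Elovl6 was chosen because it held the value farthest from its group, also given further on. Capitals mark matches to TCACNCCAC (a core of SREBP elements), CACGTG (the E-box), CCAAT (the box bound by NF-Y) or GGGCGG (the GC box bound by Sp1), on either strand. The windows lie at chr11:120824548-120824797 on the minus strand for Fasn, chr9:77917115-77917364 on the plus strand for Elovl5 and chr3:129532136-129532385 on the plus strand for Elovl6 (GRCm38.p6). The Fasn window lies within the annotated span of the gene, chr11:120805958-120825166, so its start is not the outermost one.
Fasn: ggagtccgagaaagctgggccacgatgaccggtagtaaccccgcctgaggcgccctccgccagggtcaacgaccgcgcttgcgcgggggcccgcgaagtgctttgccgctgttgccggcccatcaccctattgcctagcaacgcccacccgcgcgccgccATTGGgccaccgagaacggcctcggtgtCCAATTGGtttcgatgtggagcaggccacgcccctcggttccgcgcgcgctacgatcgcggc
Elovl5: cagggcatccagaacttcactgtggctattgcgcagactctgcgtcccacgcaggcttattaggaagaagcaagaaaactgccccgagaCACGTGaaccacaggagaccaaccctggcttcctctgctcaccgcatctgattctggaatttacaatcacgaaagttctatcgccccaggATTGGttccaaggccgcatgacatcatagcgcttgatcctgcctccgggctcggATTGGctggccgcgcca
Elovl6: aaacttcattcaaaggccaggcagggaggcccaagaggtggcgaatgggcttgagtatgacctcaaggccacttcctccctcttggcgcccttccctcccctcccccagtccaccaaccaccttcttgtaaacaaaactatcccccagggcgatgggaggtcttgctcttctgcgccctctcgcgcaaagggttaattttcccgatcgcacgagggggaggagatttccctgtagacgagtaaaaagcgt
The Fasn window held CCAAT 3 times, 2 of them overlapping on opposite strands, and the Elovl5 window held CACGTG once and CCAAT 2 times. The Elovl6 window held none of the 4. Over the whole 300-base windows, TCACNCCAC was found in 0 of the 9 windows of these genes and in 1.24% of all 32851 windows in the table. CACGTG was in 1 of the 9 and 7.15% of all, CCAAT in 5 of the 9 and 37.4% of all, and GGGCGG in 4 of the 9 and 35.7% of all. All windows of Srebf1, Fasn and Acaca lie within the annotated spans of their genes, so the counts do not cover the outermost starts of these genes. These matches describe letters only and say nothing about binding in these cells.

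Most of the macrophage markers listed were well measured, but not all. Of 14 marker symbols listed 13 had a row, and the other, Emr1, is an older symbol of Adgre1, which had one. Of the 13, 12 passed the filter on low values, with Lyz2 between 10.8 and 11.4, Cd68 between 9.43 and 10.1 and Csf1r between 8.83 and 9.84. Mrc1 lay below the filter at a mean of 1.92. Mertk passed it at a mean of 2.42, the same as the adipocyte marker Plin1, so passing the filter does not by itself show expression. Over the list the mean level was 7.24 to 7.58 in pre-miR-223, 7.30 to 7.82 in anti-miR-223 and 7.43 to 7.65 in scramble arrays. Markers of adipocytes and hepatocytes, cells known for high fatty acid synthesis, averaged between 1.81 and 2.07 in every array. Those of lymphoid cells, fibroblasts and epithelium averaged between 1.69 and 2.44, though Krt8 of the epithelium list had a mean of 3.52 (3.05 to 3.92). The part of these differences in the results that follow was not tested. The microRNA itself had no row of its own symbol, so delivery of the reagents was not checked. Anti-miR-223 replicate 4 stood apart from the rest. Its median correlation with the other arrays was 0.967, against 0.988 to 0.992 for the other 11, and 629 tested genes lay over 2-fold from their 12-array mean in it, against at most 37 in any other array. Differences that involve the anti-miR-223 mean are given again without it where they move by over 1.5 times.

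No gene of fatty acid synthesis or desaturation passed the test in any of the 3 comparisons. Neither did any of the 14611 genes tested: limma called 0 in each comparison (0%), with unadjusted p under 0.05 for 711 genes (4.87%) between pre-miR-223 and scramble, 294 (2.01%) between anti-miR-223 and scramble, and 528 (3.61%) between pre-miR-223 and anti-miR-223. These counts moved with single arrays. The first became 1371 with anti-miR-223 replicate 4 left out, 1510 with pre-miR-223 replicate 2 left out, and 314, 455 and 385 on removing pre-miR-223 replicate 4, pre-miR-223 replicate 3 and scramble replicate 2. The second became 978 on removing anti-miR-223 replicate 4. The third became 280 on removing pre-miR-223 replicate 4, 1014 on removing anti-miR-223 replicate 2 and 1147 on removing pre-miR-223 replicate 2. The shares are therefore a rough background. Of the 9 genes, 0 had an unadjusted p under 0.05 in any comparison. In 0 of the 9 did the 4 arrays of one group lie wholly to one side of the 4 of another, which 2.98%, 1.55% and 1.67% of all tested genes did in the same 3 comparisons.

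Srebf1, the transcription factor (transcript cluster 17263535), had log2 levels of 5.70, 5.83, 5.45 and 5.62 in pre-miR-223 arrays, 5.59, 5.63, 5.85 and 5.62 in anti-miR-223 arrays, and 6.10, 5.77, 5.55 and 5.72 in scramble arrays. Scramble replicate 1 was the highest of the 12 and pre-miR-223 replicate 3 the lowest, and all 3 groups overlapped. The log2 difference was -0.14 (95% confidence interval -0.41 to 0.13) for pre-miR-223 relative to scramble and -0.11 (-0.38 to 0.16) for anti-miR-223 relative to scramble. Both opposed reagents therefore gave a mean below the scramble mean, and between pre-miR-223 and anti-miR-223 it was -0.03 (-0.30 to 0.24), or -0.04 without anti-miR-223 replicate 4.

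Acly, the source of cytosolic acetyl-CoA (cluster 17269521), had log2 levels of 6.87, 7.09, 6.98 and 6.98 in pre-miR-223 arrays, 6.76, 6.87, 6.93 and 7.26 in anti-miR-223 arrays, and 6.85, 7.24, 6.98 and 7.01 in scramble arrays. Each group spanned much of the same range. The differences were -0.04 (-0.30 to 0.23) for pre-miR-223 relative to scramble, -0.06 (-0.32 to 0.20) for anti-miR-223 relative to scramble and 0.03 (-0.24 to 0.29) for pre-miR-223 relative to anti-miR-223. Without anti-miR-223 replicate 4 the last 2 were -0.16 and 0.13. Acaca, the carboxylase of the committed step (cluster 17254395), had log2 levels of 5.29, 5.27, 5.04 and 4.94 in pre-miR-223 arrays, 4.88, 4.86, 5.17 and 5.53 in anti-miR-223 arrays, and 4.999, 5.23, 5.19 and 5.06 in scramble arrays. The anti-miR-223 group held both the lowest and the highest values, with replicates 1 and 2 at the bottom and replicate 4 at the top. The group means of Acaca lay between 5.11 and 5.14, and the 3 differences were 0.01 (-0.30 to 0.33), -0.01 (-0.32 to 0.30) and 0.02 (-0.29 to 0.34), in the order of comparisons given for Acly. The last 2 became -0.15 and 0.16 when anti-miR-223 replicate 4 was left out.

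Fasn, the palmitate-building enzyme (cluster 17273348), had log2 levels of 7.69, 7.87, 7.49 and 7.62 in pre-miR-223 arrays, 7.70, 7.65, 7.75 and 7.94 in anti-miR-223 arrays, and 7.79, 8.13, 7.69 and 7.85 in scramble arrays. The mean was 7.67 ± 0.16 in pre-miR-223, 7.76 ± 0.13 in anti-miR-223 and 7.87 ± 0.19 in scramble arrays (SD, n = 4 each). The difference of -0.20 (-0.45 to 0.06) for pre-miR-223 relative to scramble had the smallest unadjusted p of the 9 genes in that comparison, 0.125, and limma gave it an adjusted p of 0.921. Leaving out each array in turn gave -0.26 to -0.11, and the value was -0.12 with each array centred on its median, -0.10 with the quantile normalisation repeated and -0.08 with cyclic loess. For anti-miR-223 relative to scramble it was -0.11 (-0.36 to 0.15), and for pre-miR-223 relative to anti-miR-223 -0.09 (-0.35 to 0.17), or -0.17 and -0.03 without anti-miR-223 replicate 4.

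Elovl5, the elongase of polyunsaturated chains (cluster 17519598), had log2 levels of 7.99, 8.05, 7.89 and 7.78 in pre-miR-223 arrays, 7.87, 7.89, 8.07 and 8.25 in anti-miR-223 arrays, and 7.99, 8.03, 7.90 and 8.10 in scramble arrays. It was among the less variable of the tested genes, with a within-group SD of 0.13, at the 18.2th percentile of all. The differences were -0.08 (-0.31 to 0.16) for pre-miR-223 relative to scramble, 0.02 (-0.22 to 0.25) for anti-miR-223 relative to scramble and -0.09 (-0.33 to 0.14) for pre-miR-223 relative to anti-miR-223. The last 2 were -0.06 and -0.01 without anti-miR-223 replicate 4.

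Elovl6, which lengthens palmitate to stearate (cluster 17402558), had log2 levels of 5.07, 5.45, 5.16 and 5.02 in pre-miR-223 arrays, 4.87, 4.94, 5.01 and 7.96 in anti-miR-223 arrays, and 5.05, 5.44, 4.89 and 5.34 in scramble arrays. The 1 high value in anti-miR-223 replicate 4 lay outside everything else measured for the gene, while the other 3 anti-miR-223 arrays were among the 4 lowest of the 12. Its within-group SD of 0.89 was at the 99.8th percentile of all tested genes, whose median was 0.19. The mean was 5.17 ± 0.19 in pre-miR-223, 5.69 ± 1.51 in anti-miR-223 and 5.18 ± 0.26 in scramble arrays (SD, n = 4 each), and without replicate 4 the anti-miR-223 mean was 4.94 ± 0.07 (SD, n = 3). The difference for anti-miR-223 relative to scramble was 0.51 (-0.59 to 1.62) with all arrays and -0.24 (-0.54 to 0.06) without that array, where limma gave an unadjusted p of 0.104 and an adjusted p of 0.721. For pre-miR-223 relative to anti-miR-223 it was -0.52 (-1.62 to 0.59) with all arrays and 0.24 (-0.06 to 0.54) without it. For pre-miR-223 relative to scramble, where that array enters the spread but neither mean, it was -0.01 (-1.11 to 1.10), and the interval narrowed to -0.28 to 0.27 without the array.

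Scd1, the oleate-forming desaturase (cluster 17365098), had log2 levels of 6.998, 7.29, 6.84 and 7.20 in pre-miR-223 arrays, 7.04, 6.96, 7.18 and 7.47 in anti-miR-223 arrays, and 7.01, 7.28, 6.99 and 7.39 in scramble arrays. The scramble arrays held 2 low and 2 high values that spanned most of both other groups. The differences were -0.09 (-0.39 to 0.22) for pre-miR-223 relative to scramble, -0.01 (-0.31 to 0.30) for anti-miR-223 relative to scramble and -0.08 (-0.38 to 0.23) for pre-miR-223 relative to anti-miR-223, the last 2 of which were -0.11 and 0.02 without anti-miR-223 replicate 4.

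Fads1, the desaturase that forms arachidonate (cluster 17357460), had log2 levels of 9.02, 9.30, 9.11 and 8.97 in pre-miR-223 arrays, 8.99, 9.10, 9.23 and 9.63 in anti-miR-223 arrays, and 9.38, 9.33, 9.15 and 9.27 in scramble arrays. In pre-miR-223 arrays 3 of 4 values lay below the lowest scramble value, and replicate 2 lay inside the scramble range. The differences were -0.18 (-0.47 to 0.11) for pre-miR-223 relative to scramble, -0.04 (-0.33 to 0.25) for anti-miR-223 relative to scramble and -0.14 (-0.43 to 0.15) for pre-miR-223 relative to anti-miR-223. With anti-miR-223 replicate 4 left out the last 2 were -0.17 and -0.0071. The first was -0.10, -0.0093 and -0.06 after median centring, repeated quantile normalisation and cyclic loess. Fads2, the desaturase that acts first on dietary polyunsaturated fatty acids (cluster 17362595), had log2 levels of 8.72, 8.96, 8.64 and 8.63 in pre-miR-223 arrays, 8.78, 8.63, 8.88 and 8.94 in anti-miR-223 arrays, and 8.93, 8.90, 8.77 and 8.85 in scramble arrays. As for Fads1, 3 of 4 pre-miR-223 values were below the lowest scramble value and replicate 2 was not. The differences were -0.13 (-0.35 to 0.10) for pre-miR-223 relative to scramble, -0.05 (-0.28 to 0.18) for anti-miR-223 relative to scramble and -0.08 (-0.30 to 0.15) for pre-miR-223 relative to anti-miR-223, and the last 2 were -0.10 and -0.03 without anti-miR-223 replicate 4. Fads2 had one of the smaller within-group SDs, 0.12, at the 13.8th percentile of all tested genes.

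**Figure D1:**
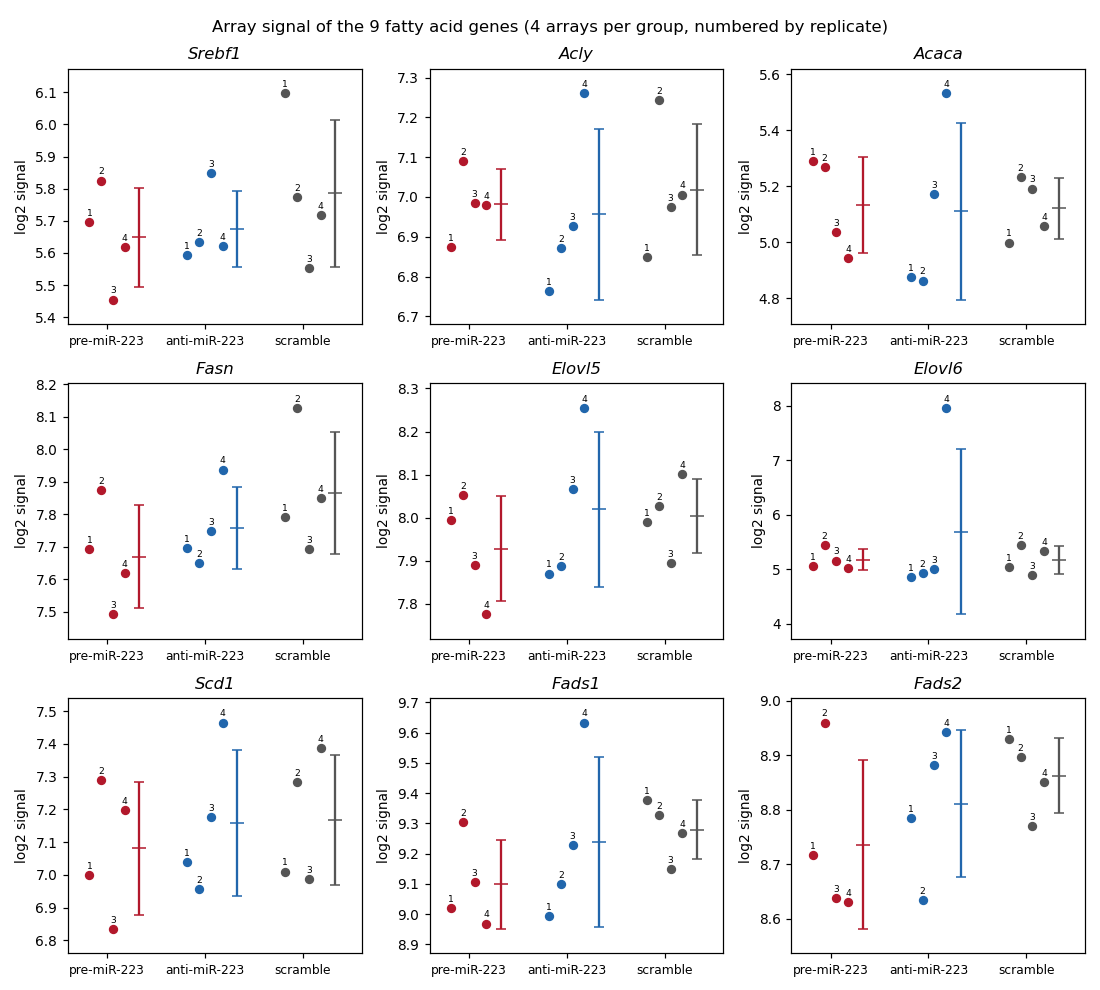
Log2 array signal of the 9 genes in each pre-miR-223, anti-miR-223 and scramble array (points, numbered by replicate), with the group mean and SD (bars, n = 4). Each panel has its own scale; the groups overlap in every panel, and Elovl6 in anti-miR-223 replicate 4 stands at 7.96.

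The direction of the 9 differences was set beside that of all tested genes. For pre-miR-223 relative to scramble 8 of 9 differences were below 0, against 65.2% of all tested genes, but the count was 5, 3 and 4 after centring each array on its median, repeating the quantile normalisation and cyclic loess. For anti-miR-223 relative to scramble it was 7 of 9 against 52.5% (7, 3 and 5 after the same rescalings), and for pre-miR-223 relative to anti-miR-223 7 of 9 against 62.8% (5, 6 and 4). The medians of the 9 differences were -0.09, -0.04 and -0.08, beside -0.05, -0.01 and -0.04 over all tested genes. After the 3 rescalings, in the order just given, the first median was -0.0066, 0.013 and 0.025, the second -0.039, 0.0052 and -0.0018, and the third -0.0014, -0.0058 and 0.0019. Over all tested genes the first median was then 0.026, -0.00075 and 0.0013, and the second -0.0048, 0.00046 and 0.0026. The third was 0.033, -0.00051 and -7.7e-05. Shares of all tested genes below 0 were not computed after the rescalings, so 65.2%, 52.5% and 62.8% hold for the deposited values only. Leaving out anti-miR-223 replicate 4 made the second median of the 9 differences -0.15 and the third -0.0071, beside -0.05 and -0.01 over all tested genes. Without that array the counts below 0 were 8, 9 and 5 of 9 in the same comparisons, beside 65.2%, 63.6% and 52.2% of all tested genes. Because the comparisons share arrays, their counts are not separate observations.

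The intervals bound the changes that these arrays leave room for. Leaving Elovl6 aside, the lowest and highest ends of the 8 intervals were -0.47 and 0.33 for pre-miR-223 relative to scramble, -0.38 and 0.30 for anti-miR-223 relative to scramble, and -0.43 and 0.34 for pre-miR-223 relative to anti-miR-223. In linear terms these are 0.723- to 1.25-fold, 0.768- to 1.23-fold and 0.744- to 1.26-fold, so changes of 1.5-fold lay outside the interval of each of the 8. For Elovl6 each of the 3 intervals held at least one change of 2-fold. Without anti-miR-223 replicate 4 the intervals of all 9 genes excluded 1.5-fold in every comparison. Signals near background understate changes on arrays, so these bounds refer to the array scale.

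**Figure D2:**
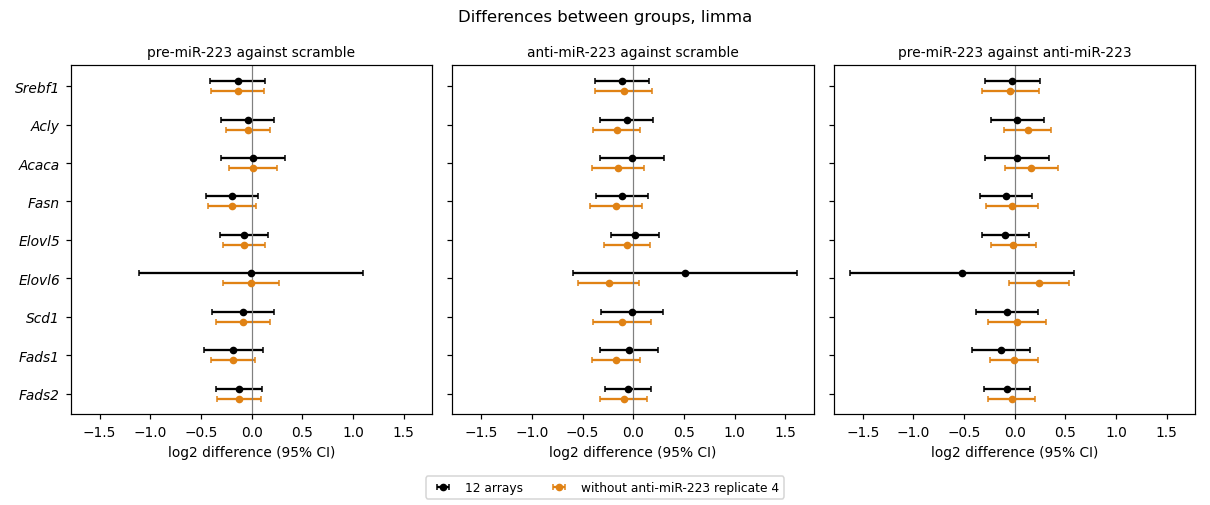
Log2 differences between groups for the 9 genes with 95% confidence intervals from limma, with all 12 arrays (black) and without anti-miR-223 replicate 4 (orange). Every interval includes 0; that of Elovl6 is the widest and narrows to -0.54 to 0.06 for anti-miR-223 relative to scramble without that array.

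Across arrays the 9 genes mostly lay high or low together, in all 3 groups. In the pre-miR-223 arrays 2, 9, 0 and 1 of the 9 genes lay above their 12-array mean, in the anti-miR-223 arrays 0, 0, 6 and 8, and in the scramble arrays 5, 9, 1 and 7, by replicate number. Pre-miR-223 replicate 2 and scramble replicate 2 thus had every gene above its mean. Pre-miR-223 replicate 3 and anti-miR-223 replicates 1 and 2 had none. Over all tested genes the shares above the mean were 37.8%, 60.4%, 38.9% and 34.2% in pre-miR-223, 39.1%, 39.2%, 53.8% and 59.3% in anti-miR-223 and 54.5%, 65.4%, 47.1% and 48.9% in scramble arrays. The shares over all genes were high and low in much the same arrays as the 9 genes, and the part of this in the joint movement was not tested. The median deviation of the 9 genes ranged from -0.17 in pre-miR-223 replicates 3 and 4 to 0.27 in anti-miR-223 replicate 4.

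**Figure D3:**
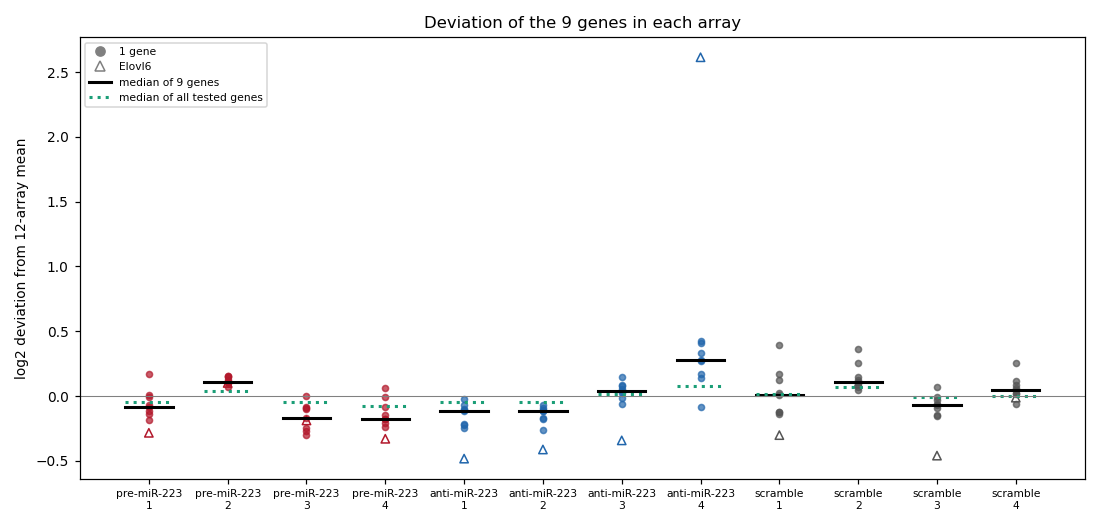
Log2 deviation of each of the 9 genes from its 12-array mean, by array; circles are single genes, triangles are Elovl6, black lines the median of the 9 and green dotted lines the median of all 14611 tested genes. The median of the 9 lies between -0.17 and 0.27, and arrays of the same group lie on both sides of 0.

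Correlations across the 12 arrays were computed for all 36 pairs of the 9 genes, each with a 2-sided test of 100000 permutations and Benjamini-Hochberg adjustment over the 36. Of these, 34 were positive, with a median Pearson r of 0.66, and 9 passed by both Pearson's r and Spearman's rho. The pairs were Acly with Elovl6, Acaca with Elovl5, Fads1 with Fads2, Elovl5 with Fads1 and Fads2, and Fasn with Elovl5, Scd1, Fads1 and Fads2. Fasn and Fads2, which act in the making of palmitate and on dietary polyunsaturated chains, had r = 0.789 (adjusted permutation p = 0.00864) and rho = 0.895 (adjusted permutation p = 0.00648), and r was 0.889 without the 2 arrays farthest in Fasn. Elovl5 and Fads1 had r = 0.865 (adjusted permutation p = 0.0081) and rho = 0.769 (adjusted permutation p = 0.0253), with r = 0.665 without the 2 arrays farthest in Elovl5. Fads1 and Fads2 had r = 0.801 (adjusted permutation p = 0.00864) and rho = 0.860 (adjusted permutation p = 0.0103), with r = 0.791 without the 2 arrays farthest in Fads1.

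With each value taken as its deviation from its group mean, the median r was again 0.66, and 10 pairs passed by both measures. Without anti-miR-223 replicate 4 all 36 were positive with a median r of 0.57, but 2 pairs passed by both, Fasn with Fads2 and Fads1 with Fads2. After each array was centred on its own median, 0 pairs passed by either measure, the median r was 0.17 and 26 of 36 were positive. Each gene's median r with the other 8 was 0.62 to 0.73, beside 0.18 to 0.27 with all tested genes, for every gene but Srebf1. Srebf1, the regulator, had a median r of 0.27 with the other 8 and 0.09 with all tested genes over the 12 arrays. Leaving out anti-miR-223 replicate 4 gave 0.45 and 0.17, close to the 0.47 to 0.67 that the other 8 genes then had among the 9. By Pearson's r Srebf1 was closest to Fads2 (r = 0.655, adjusted permutation p = 0.0311), with r = 0.561 without the 2 arrays farthest in Srebf1. By Spearman's rho it was closest to Fasn (0.622, against 0.615 for Fads2, each with an adjusted permutation p of 0.069). All values of an array share its RNA, labelling and normalisation.

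**Figure D4:**
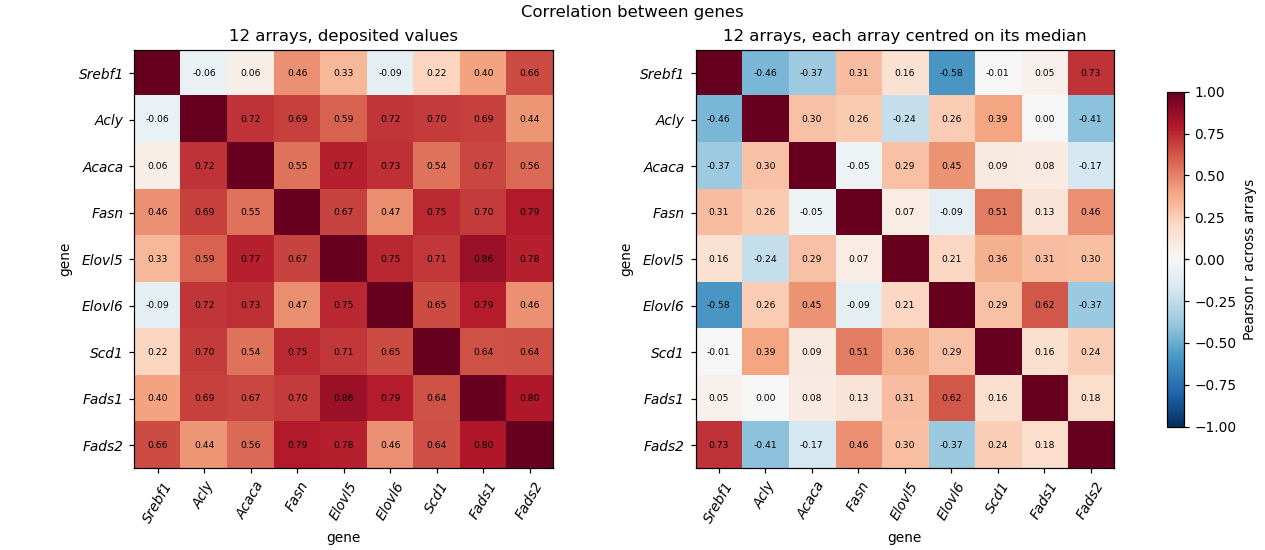
Pearson's r across the 12 arrays for each pair of the 9 genes, on the deposited values (left) and after each array was centred on its median (right). The median over the 36 pairs is 0.66 on the left and 0.17 on the right, and Srebf1 has the palest row on the left, where anti-miR-223 replicate 4 is included.

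The genes whose levels followed the mean of the 9 most closely, over the 11 arrays without anti-miR-223 replicate 4 and among 12733 candidate protein genes, were Znrd1 (r = 0.982), Jade2 (0.971), Mbnl1 (0.960), Tango2 (0.959) and Copz1 (0.958). The genes that followed Elovl6 most closely over the 12 arrays were Med1 (0.993), Ptpn12 (0.989), Slc17a5 (0.987), Sh3bgrl (0.986) and Vps8 (0.986). Without anti-miR-223 replicate 4 their r with Elovl6 was 0.887, 0.776, 0.766, 0.788 and 0.841, each lower than with it. These are descriptions over few arrays and carry no test.

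In anti-miR-223 replicate 4 itself, Elovl6 was 2.85 above the mean of the other 11 arrays on the log2 scale, a 7.22-fold excess. It was the fourth largest excess among the 14611 tested genes in that array, in which 647 genes were over 2-fold above the other arrays and 170 over 2-fold below. The other 8 genes of the pathway did not go over 2-fold. Fads1 differed by 0.47, Acaca by 0.45, Scd1 by 0.36, Acly and Elovl5 by 0.30 each, Fasn by 0.19, Fads2 by 0.15 and Srebf1 by -0.09. In that array 8 of the 9 genes were above the mean of the others, with a median of 0.30, beside 59.3% of all tested genes and a median of 0.08 over them. With a single array, this has no replicate check.

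The wider pathway was read from 5 lists that held 57 tested genes, with 13 genes of fatty acid oxidation kept apart for contrast, and none was called in any comparison. For pre-miR-223 relative to scramble 45 of the 57 differences were below 0 (31 to 34 under the 3 rescalings), beside 65.2% of all tested genes on the deposited values. The share of all tested genes under the rescalings was not computed, here or for the single lists below, so rescaled counts have no background. The median of the 57 was -0.08, and -0.0041, -0.045 and -0.036 under the rescalings. Of the 57, 7 had an unadjusted p under 0.05, or 12.3% beside 4.87% of all tested genes. For anti-miR-223 relative to scramble 27 were below 0 (24 to 28 under the rescalings, 39 without anti-miR-223 replicate 4). Of all tested genes 52.5% were below 0, or 63.6% without that array. The median of the 57 was 0.01 (-0.04 without that array), and 1 had an unadjusted p under 0.05, or 1.75% beside 2.01%. For pre-miR-223 relative to anti-miR-223 47 were below 0 (33 to 39 under the rescalings, 33 without anti-miR-223 replicate 4). Of all tested genes 62.8% were below 0, or 52.2% without that array. The median of the 57 was -0.10 (-0.04 without that array), and 5 had an unadjusted p under 0.05, or 8.77% beside 3.61%. The lists were chosen with earlier results of these data known, so a higher share of small p in them is not an independent result.

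Among 15 tested genes that control SREBP1 and lipogenesis, 10, 6 and 12 were below 0 in pre-miR-223 relative to scramble, anti-miR-223 relative to scramble and pre-miR-223 relative to anti-miR-223 (6 to 7, 6, and 8 to 9 under the rescalings, and 10, 9 and 8 without anti-miR-223 replicate 4). Srebf2, the factor for cholesterol synthesis, differed by -0.30 (-0.54 to -0.06) and Insig2, which holds the SREBP complex in the endoplasmic reticulum, by 0.41 (0.08 to 0.75) for pre-miR-223 relative to scramble, both with an adjusted p of 0.921 by limma. Insig2 also differed by 0.25 (-0.08 to 0.59) for anti-miR-223 relative to scramble, or 0.10 without anti-miR-223 replicate 4. Nr1h3, which encodes LXR alpha, differed by 0.20 (-0.11 to 0.50) for anti-miR-223 relative to scramble and by -0.31 (-0.61 to -0.01) for pre-miR-223 relative to anti-miR-223. Scap, the escort of the SREBPs, differed by -0.32 (-0.74 to 0.10) in that last comparison, or -0.17 without the array.

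Among 11 tested genes that supply precursors, 10, 7 and 10 were below 0 in the same comparisons (5 to 6, 7, and 6 to 7 under the rescalings, and 10, 8 and 6 without anti-miR-223 replicate 4). Slc25a1, which exports citrate from mitochondria, differed by -0.34 (-0.59 to -0.09) and Mecr, of mitochondrial fatty acid synthesis, by -0.26 (-0.51 to -0.01) for pre-miR-223 relative to scramble. Acss1, a mitochondrial acetyl-CoA synthetase, differed by 0.29 (0.01 to 0.57) for anti-miR-223 relative to scramble, or 0.19 without anti-miR-223 replicate 4. It also differed by 0.28 (0.0031 to 0.57) for pre-miR-223 relative to scramble, so the means of both reagents lay above scramble. Its level was low, with means of 2.30, 2.31 and 2.01 in pre-miR-223, anti-miR-223 and scramble arrays, beside the filter of log2 2.01. Oxsm, also of the mitochondrial pathway, differed by 0.27 (-0.07 to 0.60) for anti-miR-223 relative to scramble. Its means were also low, at 2.35, 2.66 and 2.39 in the same order. Oxsm and Mecr differed by -0.31 (-0.64 to 0.02) and -0.24 (-0.49 to 0.01) for pre-miR-223 relative to anti-miR-223. None of these had an adjusted p under 0.05 by limma.

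Of 8 tested genes of the elongation cycle, 7, 3 and 7 were below 0 (4 to 5, 3 to 4, and 4 to 6 under the rescalings, and 7, 6 and 4 without anti-miR-223 replicate 4). Hacd2, a dehydratase of the cycle, differed by -0.38 (-0.73 to -0.02) for pre-miR-223 relative to scramble and by -0.19 (-0.54 to 0.16) for anti-miR-223 relative to scramble. Elovl1, the elongase of very long saturated chains, differed by -0.24 (-0.47 to -0.00) for pre-miR-223 relative to scramble and by -0.27 (-0.51 to -0.04) for pre-miR-223 relative to anti-miR-223. Tecr, the reductase that ends the cycle, differed by -0.34 (-0.65 to -0.04) in that same comparison, and Hacd3, another dehydratase, by 0.14 (-0.34 to 0.61) for anti-miR-223 relative to scramble, or -0.17 without anti-miR-223 replicate 4.

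Of 9 tested genes for other desaturases and the cytochrome b5 system that gives them electrons, 7, 6 and 5 were below 0 (5 to 6, 5 to 6, and 4 to 5 under the rescalings, and 7, 5 and 5 without anti-miR-223 replicate 4). Scd4, a paralogue of Scd1, differed by 0.26 (-0.05 to 0.57) for pre-miR-223 relative to scramble and 0.21 (-0.11 to 0.52) for anti-miR-223 relative to scramble. Its means were 2.19, 2.14 and 1.94 in pre-miR-223, anti-miR-223 and scramble arrays, near the filter of log2 2.01. Degs1, which desaturates dihydroceramide, differed by -0.20 (-0.41 to 0.01) for pre-miR-223 relative to scramble and -0.19 (-0.40 to 0.03) for pre-miR-223 relative to anti-miR-223. Cyb5r3, a reductase of cytochrome b5, differed by -0.56 (-1.30 to 0.17) for pre-miR-223 relative to anti-miR-223, and by -0.09 without anti-miR-223 replicate 4. Fads3 differed by 0.09 (-0.18 to 0.35) for anti-miR-223 relative to scramble, or 0.03 without that array.

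Of 14 tested genes of fatty acid activation and esterification, 11, 5 and 13 were below 0 (10 to 11, 3 to 5, and 11 to 12 under the rescalings, and 11, 11 and 10 without anti-miR-223 replicate 4). The median for anti-miR-223 relative to scramble was 0.03, or -0.06 without that array. Plin2, the coat protein of lipid droplets, differed by -0.28 (-0.59 to 0.03) for pre-miR-223 relative to scramble and by -0.33 (-0.65 to -0.02) for pre-miR-223 relative to anti-miR-223, or -0.20 without the array. Lpcat3, which puts polyunsaturated chains into phospholipids, differed by -0.31 (-0.61 to -0.02) in that same comparison of the 2 reagents, or -0.18 without the array. Pnpla3, a lipid droplet lipase, differed by -0.19 (-0.44 to 0.06) for pre-miR-223 relative to scramble, at means of 1.97 and 2.16, near the filter of log2 2.01. For anti-miR-223 relative to scramble, Acsl4, which activates arachidonate, differed by 0.14 (-0.17 to 0.45) and Agpat3, an acyltransferase, by -0.11 (-0.45 to 0.23). Leaving that array out gave -0.0038 and -0.27.

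Of 13 tested genes of fatty acid oxidation, the opposing pathway, 11, 8 and 10 were below 0 (8 to 9, 7 to 8, and 7 to 8 under the rescalings, and 11, 11 and 6 without anti-miR-223 replicate 4). Echs1, an enzyme of the mitochondrial spiral, differed by -0.26 (-0.52 to -0.01) for pre-miR-223 relative to scramble and -0.18 (-0.43 to 0.08) for pre-miR-223 relative to anti-miR-223. Slc25a20, the carnitine carrier, differed by 0.20 (-0.15 to 0.56) for anti-miR-223 relative to scramble and -0.32 (-0.67 to 0.03) for pre-miR-223 relative to anti-miR-223, or 0.03 and -0.15 without anti-miR-223 replicate 4. Cpt2 differed by -0.18 (-0.48 to 0.13) for pre-miR-223 relative to scramble and Ppara by -0.17 (-0.48 to 0.13) for anti-miR-223 relative to scramble. The Ppara means were 2.00 in anti-miR-223 and 2.17 in scramble arrays, near the filter of log2 2.01.

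**Figure D5:**
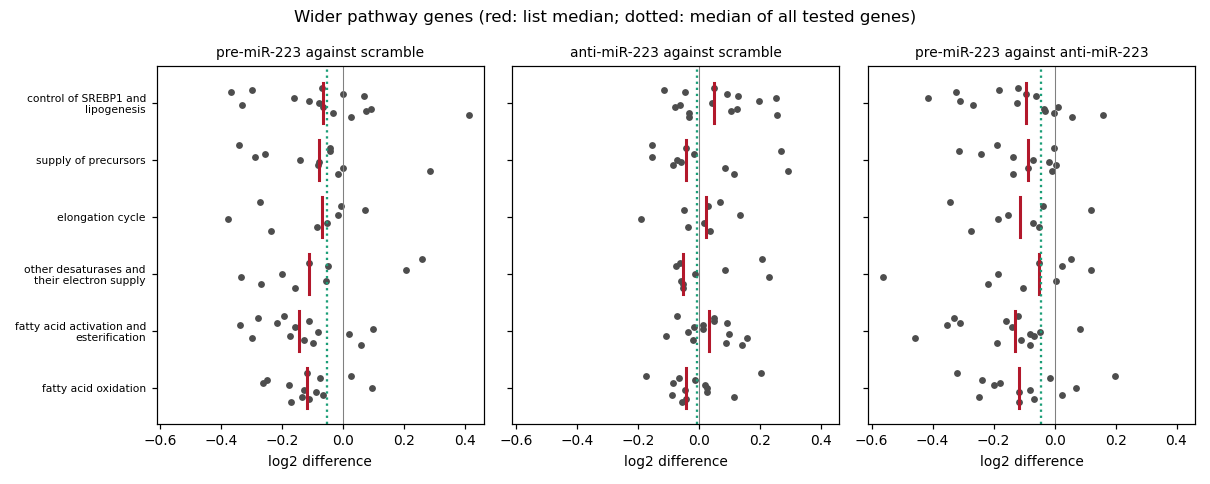
Log2 differences of the 57 tested genes of the wider pathway and the 13 of fatty acid oxidation, by list and comparison; points are genes, red bars the list medians and dotted green lines the median of all tested genes. The medians of all tested genes are -0.05, -0.01 and -0.04 from left to right, and the list medians lie between -0.14 and 0.05.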

How the data were processed

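Array measurements of 12 RAW 264.7 cultures were used, 4 per group. The authors deposited 1 table of 41345 transcript clusters in log2 units (base not stated, taken as 2); RMA, Partek and Affymetrix Expression Console are named in the submitters' processing notes, without versions or roles. RMA makes array distributions alike, so a change in total RNA would not show. No genome build is stated.

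Clusters with 1 gene symbol were used (23521; 1814 had several and 16010 none). The brightest cluster stood for a gene, and the 14611 genes whose mean passed log2 2.01, the 40th percentile over clusters, were tested. One model over the 12 arrays was fitted in limma (version 3.58.1, R 4.3.3; lmFit, then eBayes, 9 residual degrees of freedom, Benjamini-Hochberg over all tested genes, 2-sided, called under 0.05). The number of arrays limits precision: the median half-width of the 95% interval was 0.29. The fit was checked on data made with known changes. The genes and lists were chosen with earlier results of these data known. Named from each list were called genes or, with none, the 2 of smallest p per comparison, plus the 5 genes most alike in profile to the mean of the 9 and to Elovl6. Pathway roles are background. Alternatives covered rescaling, filters, variance models, the replicate block and each array left out. The labels do not say whether same-numbered arrays shared a culture or day, so the model has no pairing. Deviations of same-numbered arrays had correlations of -0.50 to 0.39, which are too mixed and few to settle whether they were paired.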

Additional observations from a re-analysis of the deposited data

Results flagged for a closer look

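Elovl6 in anti-miR-223 replicate 4 was at 7.96, against 4.87 to 5.01 in the other 3 anti-miR-223 arrays, and its gap to the nearest of them took 0.955 of the group's range, above Dixon's 95% limit for 4 samples. Srebf1 in anti-miR-223 replicate 3 was at 5.85, against 5.59 to 5.63 in the other 3, with a gap of 0.841 of the range. The 9 genes in 3 groups gave 27 such checks, and chance passes about 1 in 20 of them.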

How the results depend on the processing

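The 27 differences of the 9 genes were recomputed under 23 alternatives, 621 values. None was called, the lowest adjusted p by limma being 0.420; 557 kept their direction and 64 turned sign, in 19 of the 27. The cause of the turns was not tested. In every alternative 0 of the genes tested were called in each comparison. Centring each array on its median turned pre-miR-223 minus scramble for Acly (0.043), Elovl5 (0.0041) and Elovl6 (0.074), and pre-miR-223 minus anti-miR-223 for Srebf1 (0.052) and Fads2 (0.0024). Repeating the quantile normalisation turned pre-miR-223 minus scramble for Acly (0.073), Elovl5 (0.023), Elovl6 (0.11), Scd1 (0.013) and Fads2 (0.012), anti-miR-223 minus scramble for Acaca (0.0052), Scd1 (0.019), Fads1 (0.0046) and Fads2 (0.014), and pre-miR-223 minus anti-miR-223 for Srebf1 (0.066). Cyclic loess turned the first for Acly (0.074), Elovl5 (0.042), Elovl6 (0.11) and Scd1 (0.025), the second for Acaca (0.0087) and Scd1 (0.023), and the third for Srebf1 (0.061), Scd1 (0.0019) and Fads2 (0.0075). Array weights turned Elovl5 (-0.048) and Elovl6 (-0.095) in anti-miR-223 minus scramble and Elovl6 (0.045) in pre-miR-223 minus anti-miR-223. Without 1 array in turn, pre-miR-223 minus scramble ranged from -0.093 to 0.039 for Acly, -0.038 to 0.078 for Acaca and -0.10 to 0.083 for Elovl6. Anti-miR-223 minus scramble ranged from -0.16 to 0.013 for Acly, -0.15 to 0.073 for Acaca, -0.062 to 0.066 for Elovl5, -0.24 to 0.79 for Elovl6, -0.11 to 0.066 for Scd1, -0.17 to 0.040 for Fads1 and -0.095 to 0.0079 for Fads2, each lowest without anti-miR-223 replicate 4. Pre-miR-223 minus anti-miR-223 ranged from -0.085 to 0.039 for Srebf1, -0.038 to 0.13 for Acly, -0.059 to 0.16 for Acaca, -0.79 to 0.24 for Elovl6 and -0.15 to 0.023 for Scd1. Pairs of genes correlated by both measures numbered 9, but 2 without anti-miR-223 replicate 4 and 0 with each array centred on its median.

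With the replicate block, limma called 0 genes in each comparison, with unadjusted p under 0.05 for 547 genes in pre-miR-223 set against scramble, 248 in anti-miR-223 set against scramble and 408 between the 2 reagents. The lowest adjusted p was 0.978, 1.0 and 0.704 in that order, and the block changed no call.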
